A study of Saccharomyces cerevisiae with 8 samples.

Results

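The subject is a set of 10 budding yeast genes for fatty acid synthesis, elongation, desaturation and activation, picked by systematic name from a table of read counts for 5545 genes. All 10 were in the table and all 10 passed the filter on low counts that left 5488 genes for testing. They are ACC1, FAS1 and FAS2, which make saturated fatty acids, ELO1, ELO2, ELO3 and PHS1, which lengthen them, OLE1, which puts a double bond into them, and FAA1 and FAA4, which activate free fatty acids. Ribosome footprints and total RNA of Saccharomyces cerevisiae were sequenced to see how translation differs between low and high polyamine levels. Every library came from a MATa ura3-52 leu2 strain in which spe1 (written spel in the labels) and spe2, needed for the cell's own synthesis of polyamines, were each replaced by LEU2. Cells were grown in SD medium at 30 °C, from a starting optical density of 0.025 to between 0.6 and 0.7. The 4 groups were footprints without added spermidine, footprints with 10 µM spermidine, RNA without added spermidine and RNA with 10 µM spermidine, each with 2 libraries. All 4 groups share the deletions, so the comparison is between low and higher supply of spermidine from outside.

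In yeast the acetyl-CoA carboxylase Acc1 makes malonyl-CoA, and the cytosolic fatty acid synthase, a complex of equal numbers of Fas1 (beta) and Fas2 (alpha) subunits, joins it into palmitic and stearic acid. At the endoplasmic reticulum the Elo condensing enzymes, a reductase, the dehydratase Phs1 and a further reductase lengthen acyl-CoA, up to the very long chains that go into ceramides. Ole1 is the only desaturase of this yeast for fatty acids and supplies palmitoleic and oleic acid, and its gene is switched on through the membrane-bound activators Mga2 and Spt23. Faa1 and Faa4 are the main acyl-CoA synthetases for fatty acids taken up or released inside the cell.

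Libraries held 1786419 to 2884632 counts in RNA and 3324344 to 7089928 in footprints, and the libraries without spermidine were the deeper ones in each assay. SPE1 held 4 to 15 counts and SPE2 3 to 62 counts per library. Of the a-cell markers, all 6 were listed at 30.0 to 571 CPM (counts per 1000000 counts of a library), and the 3 listed alpha-cell markers of 4 lay between 0.604 and 38.0 CPM. CPM here uses library totals scaled for composition, so every change is relative to the typical gene and a shift of all mRNAs together cannot be seen. Whether a pair of replicates stems from independent cultures is not stated, and p-values therefore cover only the spread of these libraries, which may be technical. A change was called at an adjusted p below 0.05 in edgeR's quasi-likelihood test over all 5488 genes.

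With spermidine, OLE1 and PHS1 stood out among the 10 genes in footprints. OLE1 footprints rose 4.06-fold and its mRNA 2.35-fold, PHS1 footprints rose 2.02-fold and FAA4 footprints rose 1.37-fold. The footprints of ACC1, FAS1, FAS2, ELO1, ELO2, ELO3 and FAA1 were not called. In mRNA, ELO3 and FAA1 were called lower, both by less than 1.3-fold and both with calls that did not survive several of the other settings. In all, 3 of 10 genes were called higher and 0 lower in footprints, where 18.7% of all tested genes were called higher and 19.8% lower (38.5% in all). In mRNA 1 of 10 was called higher and 2 lower, where 8.45% of tested genes were called higher and 13.5% lower (21.9% in all). The median log2 difference of the 10 genes was 0.10 in footprints and -0.09 in mRNA, beside -0.02 and 0.00 over all tested genes. Fitted values lay above 0 for 7 of the 10 in footprints and 4 in mRNA, beside 48.6% and 50.3% of tested genes. These shares are counts of 10 genes and were not tested against the background.

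**Figure D1:**
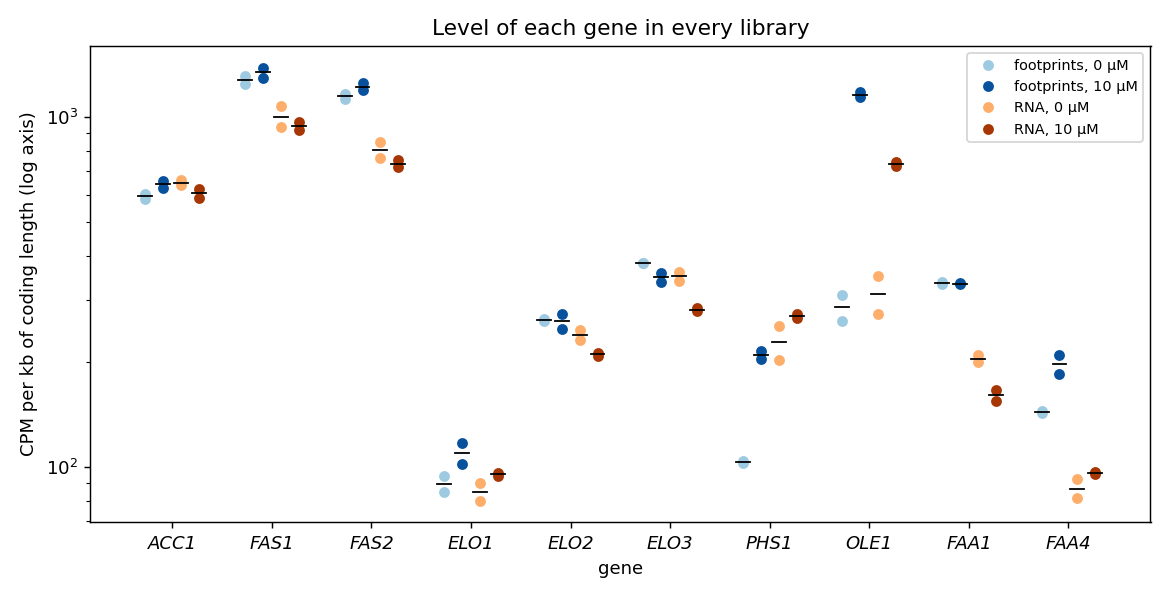
CPM per kilobase of coding length (log axis) of each of the 10 genes in every library, with points for libraries, colours for the 4 groups and short black lines for group means (n = 2). FAS1 and FAS2 have the highest means in all 4 groups, with OLE1 and FAS2 overlapping in RNA at 10 µM, and OLE1 moves from a mean of 286 to 1158 in footprints and from 313 to 734 in RNA.

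ACC1 (YNR016C, chromosome XIV, 654673 to 661374, minus strand of R64) encodes acetyl-CoA carboxylase, the first committed enzyme of the pathway. Its footprints were 4048 and 3917 CPM without spermidine and 4415 and 4204 CPM with it, and its mRNA was 4429 and 4282 CPM without and 3938 and 4186 CPM with it. The groups did not overlap in either assay, footprints being higher and mRNA lower with spermidine, but non-overlap alone held for 72.6% of all tested genes in footprints and 60.1% in mRNA. The log2 differences were 0.11 in footprints (SE 0.09, edgeR adjusted p = 0.33) and -0.10 in mRNA (SE 0.09, edgeR adjusted p = 0.46), and neither was called.

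FAS1 (YKL182W, chromosome XI, 100671 to 106826, plus strand) encodes the beta subunit of the synthase, which carries the acetyl, malonyl and palmitoyl transferase, dehydratase and enoyl reductase activities. Its footprints were 8066 and 7676 CPM without spermidine and 8531 and 7988 CPM with it, and its mRNA was 6605 and 5754 against 5955 and 5673 CPM. The libraries of both conditions overlapped in each assay. The log2 differences were 0.07 in footprints (SE 0.10, edgeR adjusted p = 0.61) and -0.09 in mRNA (SE 0.10, edgeR adjusted p = 0.58). FAS2 (YPL231W, chromosome XVI, 108652 to 114315, plus strand) encodes the alpha subunit, which holds the acyl carrier, ketoacyl synthase and ketoacyl reductase parts. Its footprints were 6614 and 6384 CPM without spermidine and 7082 and 6758 CPM with it, and its mRNA was 4813 and 4320 against 4086 and 4257 CPM. The conditions did not overlap in either assay, as was so for 72.6% of all tested genes in footprints and 60.1% in mRNA. Footprints were higher and mRNA lower with spermidine, and neither difference was called. FAS2 differed by 0.09 on the log2 scale in footprints (SE 0.09, edgeR adjusted p = 0.47) and by -0.13 in mRNA (SE 0.09, edgeR adjusted p = 0.36).

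These 3 genes are among the longest tested, with coding lengths of 6702 nt for ACC1, 6156 nt for FAS1 and 5664 nt for FAS2, and 20, 32 and 45 tested genes respectively were longer. The other 75 tested genes of at least 5000 nt had a median log2 difference of -0.34 in footprints (quartiles -0.60 and 0.02) and -0.01 in mRNA. ACC1, FAS1 and FAS2 footprints, at 0.07 to 0.11, thus lay above the upper quartile of genes of like length. When the trend of each library on coding length was removed, the footprint differences became 0.42 for ACC1 (edgeR adjusted p = 0.012), 0.36 for FAS1 (edgeR adjusted p = 0.053) and 0.36 for FAS2 (edgeR adjusted p = 0.037), so ACC1 and FAS2 passed the test there. Their mRNA differences stayed uncalled, at -0.06, -0.06 and -0.11. That setting was chosen after seeing the data, and what lies behind the length trend was not tested.

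The subunits of the synthase were compared within each library as FAS2 over FAS1 reads per codon, which needs no scaling between libraries. In footprints the ratio was 0.891 and 0.904 without spermidine and 0.902 and 0.920 with it. In mRNA it was 0.792 and 0.816 without spermidine and 0.746 and 0.816 with it. The footprint ratio lay above the mRNA ratio in each of the conditions and closer to 1. No library of one assay lay inside the range of the other. Setting footprints against RNA carries every difference between the library protocols. How often other gene pairs differ as much was not computed, and a cause was not tested. Exact 95% binomial intervals, which cover counting error only, reached from 0.878 to 0.934 over the footprint libraries and from 0.724 to 0.839 over the RNA libraries. Means were 0.898 ± 0.0090 and 0.911 ± 0.012 in footprints and 0.804 ± 0.017 and 0.781 ± 0.049 in mRNA (SD, n = 2). Between conditions the footprint ranges overlapped, and no test of a difference is given, since an exact permutation test of 2 libraries against 2 cannot go below p = 0.333.

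**Figure D2:**
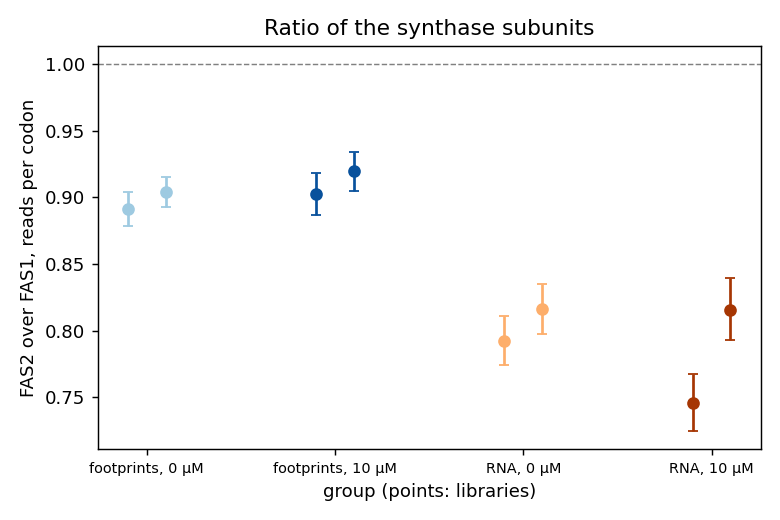
FAS2 over FAS1 reads per codon in each library by group; points are libraries, bars are exact 95% binomial intervals and the dashed line marks equal reads per codon. The vertical axis starts above 0.7. Footprint libraries lie at 0.891 to 0.920 and RNA libraries at 0.746 to 0.816.

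PHS1 (YJL097W, chromosome X, 245591 to 246244, plus strand) encodes the 3-hydroxyacyl-CoA dehydratase of the elongation cycle, an essential membrane protein. Its footprints were 67.1 and 68.0 CPM without spermidine and 133 and 140 CPM with it, from 333 to 572 counts per library. Both libraries with spermidine lay far above both without, and the replicates of each group were close together. The change amounted to 1.02 on the log2 scale (SE 0.12; adjusted p = 2.6e-04 in edgeR) and ranked 279th from the top of 5488. PHS1 mRNA was 132 and 166 CPM without spermidine and 179 and 174 CPM with it, a log2 difference of 0.25 (SE 0.12, edgeR adjusted p = 0.19) that was not called. That mRNA difference passed the test when RNA replicate 2 without spermidine was left out (log2 0.42, edgeR adjusted p = 0.047).

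The 3 Elo enzymes condense malonyl-CoA with an acyl-CoA of their own range of lengths: Elo1 lengthens medium and long chains, Elo2 makes chains for inositol-containing sphingolipids and Elo3 makes the longest ones. ELO1 (YJL196C, chromosome X, 67850 to 68782, minus strand) had 88.0 and 78.8 footprint CPM without spermidine and 109 and 94.9 CPM with it. Its groups did not overlap, as was so for 72.6% of all tested genes in footprints. The log2 difference of 0.29 (SE 0.12, edgeR adjusted p = 0.079) was not called. It passed only where genes with a mean count under 100 were left out (edgeR adjusted p = 0.049). ELO1 mRNA was 74.7 and 83.7 CPM without spermidine and 87.7 and 89.8 CPM with it (log2 difference 0.16, SE 0.13, edgeR adjusted p = 0.42).

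ELO2 (YCR034W, chromosome III, 190592 to 191635, plus strand) had 272 and 277 footprint CPM without spermidine and 259 and 285 CPM with it, so that the libraries overlapped (log2 difference -0.01, SE 0.10, edgeR adjusted p = 0.94). ELO2 mRNA was 257 and 240 CPM against 216 and 222 CPM, lower in both libraries with spermidine but not called (log2 difference -0.18, SE 0.10, edgeR adjusted p = 0.23). ELO3 (YLR372W, chromosome XII, 867354 to 868391, plus strand) had 398 and 397 footprint CPM without spermidine and 351 and 371 CPM with it. Its footprint difference of -0.14 (SE 0.09) was not called (edgeR adjusted p = 0.27). ELO3 mRNA fell from 376 and 352 CPM to 289 and 294 CPM, 1.25-fold (log2 change -0.32, SE 0.10, edgeR adjusted p = 0.041). The ELO3 call held in 1 of the 8 fits that each left out a library, that without RNA replicate 2 at 0 µM, and was lost with DESeq2, library totals, DESeq2 size factors, a mean count of at least 100 and RNA fitted alone (largest edgeR or DESeq2 adjusted p = 0.21). Its value stayed between -0.37 and -0.27 throughout.

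OLE1 (YGL055W, chromosome VII, 398628 to 400160, plus strand) encodes the stearoyl-CoA desaturase. Its footprints were 476 and 399 CPM without spermidine and 1803 and 1748 CPM with it, from 2365 and 2807 to 5757 and 7146 counts. Every library with spermidine held over 3 times the level of either library without it. On the log2 scale it rose by 2.02 (SE 0.13; adjusted p = 1.3e-05 in edgeR), the 39th highest value of the 5488. OLE1 mRNA rose as well, from 538 and 421 CPM to 1112 and 1138 CPM. This 2.35-fold rise (1.23 on the log2 scale, SE 0.13; adjusted p = 3.6e-04 in edgeR) was the 55th highest of all. Both OLE1 calls and the PHS1 footprint call held in all 8 single-library omissions and all 9 other settings. Over them the OLE1 change lay between 1.92 and 2.15 in footprints and between 1.06 and 1.42 in mRNA, and the PHS1 footprint change between 0.97 and 1.06.

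OLE1 took 0.0396% to 0.0469% of a footprint library without spermidine and 0.167% to 0.173% with it. ACC1, FAS1 and FAS2 together took 1.78% to 1.92% of every footprint library and 1.43% to 1.60% of every RNA library. Within the counts of the 10 genes, those 3 made up 89.0% and 89.1% of footprints without spermidine and 83.4% and 84.2% with it.

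FAA1 (YOR317W, chromosome XV, 909343 to 911445, plus strand) encodes the major acyl-CoA synthetase of growing cells. Its footprints were 699 and 713 CPM without spermidine and 705 and 700 CPM with it, a log2 difference of -0.01 (SE 0.09, edgeR adjusted p = 0.96) that was the smallest of the 10 genes in size. FAA1 mRNA was 438 and 419 CPM without spermidine and fell to 325 and 349 CPM with it, 1.27-fold (log2 change -0.35, SE 0.09, edgeR adjusted p = 0.026). The FAA1 call held in 3 of the 8 omissions. It was lost without either footprint library at 0 µM, without RNA replicate 1 at 0 µM and without either RNA library at 10 µM, and with DESeq2, its size factors and RNA fitted alone (largest adjusted p = 0.14 in edgeR or DESeq2, values -0.40 to -0.30).

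FAA4 (YMR246W, chromosome XIII, 759807 to 761891, plus strand) encodes the second long-chain acyl-CoA synthetase. Its footprints rose from 301 and 298 CPM to 385 and 435 CPM, by 0.45 on the log2 scale (SE 0.11; adjusted p = 0.0080 in edgeR). The call was lost without footprint replicate 2 at 10 µM (log2 0.36, edgeR adjusted p = 0.070). FAA4 mRNA was 192 and 169 CPM without spermidine and 202 and 199 CPM with it (log2 difference 0.15, SE 0.11, edgeR adjusted p = 0.39). None of the 10 genes overlaps another gene of the RefSeq table. How reads that match several genes were counted is not given in the sources used here, which bears on FAA1 and FAA4, on the ELO genes and on ACC1, whose mitochondrial relative is HFA1.

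**Figure D3:**
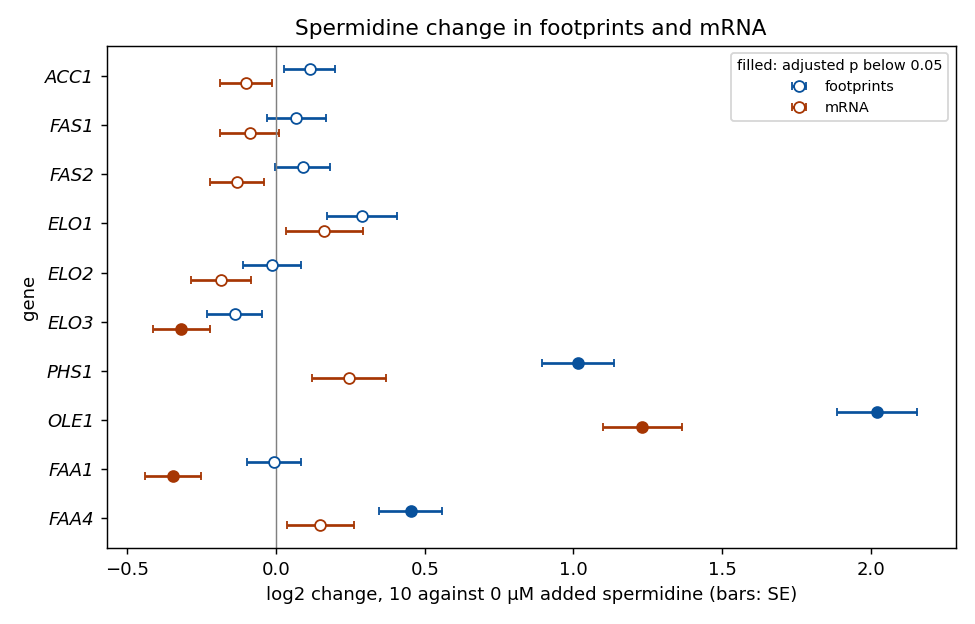
Log2 change at 10 against 0 µM added spermidine for each of the 10 genes in footprints (blue) and mRNA (brown), with bars for the SE; filled points passed an edgeR adjusted p below 0.05. OLE1 lies at 2.02 and 1.23 and PHS1 at 1.02 and 0.25, and the footprint point lies to the right of the mRNA point for every gene.

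Footprints were then set against mRNA. The ratio of the fold changes, the change in translational efficiency, was above 0 on the log2 scale in all 10 genes, from 0.13 in ELO1 to 0.79 in OLE1, with a median of 0.22. Over all tested genes the median was 0.05, and 55.4% lay above 0. None of the 10 was called, where 1.79% of tested genes were (0.893% higher and 0.893% lower), and 3 of them had an unadjusted p below 0.05, beside 18.5% of tested genes. DESeq2 called 1, OLE1 (adjusted p = 0.027), and limma voom called 0. PHS1 differed by 0.77 (SE 0.17, edgeR adjusted p = 0.060) and OLE1 by 0.79 (SE 0.18, edgeR adjusted p = 0.064), values above those of 95.9% and 96.2% of tested genes, with sign. FAA1 followed with 0.34 (SE 0.13, edgeR adjusted p = 0.21), then FAA4 with 0.30 (SE 0.15, edgeR adjusted p = 0.33). The other 6 genes lay between 0.13 and 0.22, within 2 SE of 0. PHS1 was called without RNA replicate 1 at 0 µM (log2 0.95, edgeR adjusted p = 0.028), and OLE1 without RNA replicate 2 at 0 µM (log2 0.98, edgeR adjusted p = 0.019). Those are the libraries in which PHS1 mRNA and OLE1 mRNA, respectively, were at the lower level of the pair.

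Within a condition, footprints were compared with mRNA relative to the typical gene. These contrasts call 64.4% of genes without spermidine (31.7% higher, 32.7% lower) and 65.6% with it (34.2% higher, 31.4% lower), and they carry every difference between the library protocols of the assays. Without spermidine 4 of the 10 genes were called higher in footprints, FAS1 (log2 0.35), FAS2 (0.51), FAA1 (0.72) and FAA4 (0.73), and 1, PHS1, was called lower (log2 -1.14, SE 0.12, edgeR adjusted p = 3.8e-05). With spermidine those 4 stood at 0.51, 0.73, 1.06 and 1.03, ELO2 (0.31), ELO3 (0.31) and OLE1 (0.66) were also called higher, and PHS1 was still called lower at -0.37 (SE 0.12, edgeR adjusted p = 0.022). As a ratio of mean CPM, PHS1 held 0.454 footprints per mRNA without spermidine and 0.772 with it, and OLE1 0.914 and 1.58. ACC1 and ELO1 were called in neither condition. Footprint and RNA libraries did not overlap for 8 of the 10 genes at 0 µM and for all 10 at 10 µM, beside 83.5% and 83.9% of tested genes. The PHS1 call with spermidine was lost on leaving out any 1 of the 4 libraries at 10 µM (edgeR adjusted p up to 0.096) and with DESeq2. The FAS1 call without spermidine was lost without footprint replicate 1 or RNA replicate 2 at 0 µM. At 10 µM the ELO3 call was lost without footprint replicate 2 or RNA replicate 1, and the ELO2 call without footprint replicate 2 or either RNA library. Both were also lost with library totals (log2 0.19 for each) and where mean counts under 100 were left out (0.16 for ELO2 and 0.15 for ELO3), and ELO2 with DESeq2. With that count minimum FAS1 without spermidine was at 0.19 and not called, and ACC1 without spermidine was called lower (-0.29, edgeR adjusted p = 0.011).

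**Figure D4:**
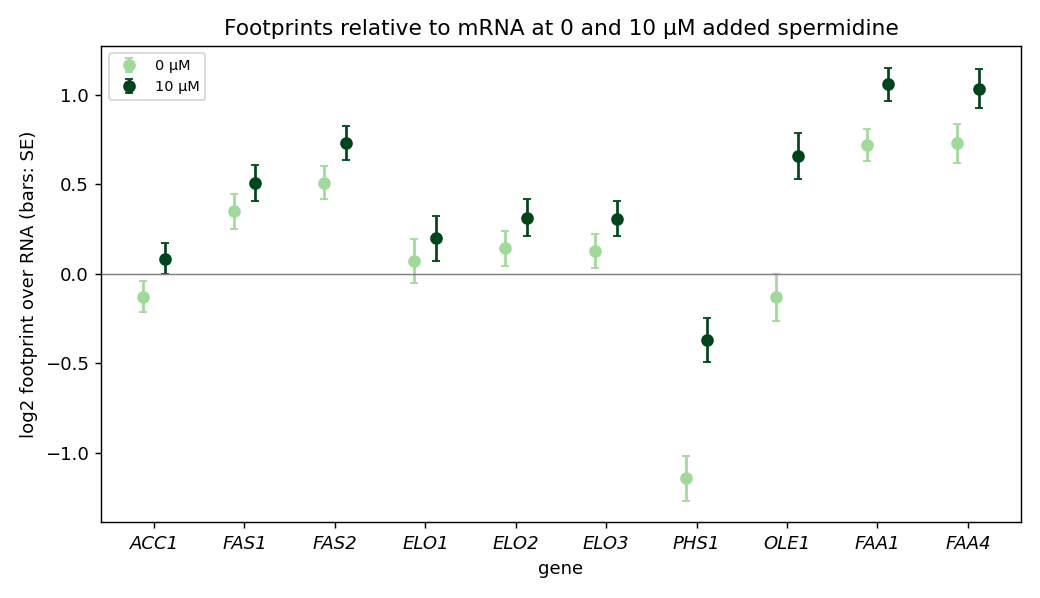
Fitted log2 ratio of footprints to mRNA for each of the 10 genes at 0 µM (light green) and 10 µM (dark green) added spermidine, with bars for the SE; 0 is the typical gene by scaling. PHS1 is lowest in both conditions, at -1.14 and -0.37, and FAA1 and FAA4 are highest.

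Per kilobase of coding length, the order of the footprint levels without spermidine was FAS1 (1279 ± 45 CPM per kb, SD, n = 2), FAS2 (1147 ± 29), ACC1 (594 ± 14), ELO3 (383 ± 0.57), FAA1 (336 ± 4.6), OLE1 (286 ± 35), ELO2 (263 ± 2.8), FAA4 (144 ± 1.2), PHS1 (103 ± 1.0) and ELO1 (89.4 ± 7.0). Only OLE1 and ELO2 overlapped among neighbours in that order. With spermidine OLE1 moved from rank 6 to rank 3, at 1158 ± 25 CPM per kb, below FAS2 (1222 ± 40) and above ACC1 (643 ± 22). PHS1 rose past FAA4 to 209 ± 7.4 CPM per kb, with libraries that overlapped those of FAA4 (197 ± 17). In mRNA OLE1 moved from rank 5 (313 ± 54 CPM per kb) to rank 3 (734 ± 12), where its libraries overlapped those of FAS2 (736 ± 21). FAA4 and ELO1 were the lowest mRNAs in both conditions and could not be ordered beyond their spread. In footprints FAS1 and FAS2 lay above 97.4% or more of tested genes in both conditions, and OLE1 went from above 88.2% to above 97.5%.

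Likeness of pattern was taken as the root mean square difference of log2 CPM, centred within each assay, over the 8 libraries, among 3082 other genes with a mean of at least 50 CPM. ACC1 and FAS2 were close by this measure: FAS2 was the nearest of all genes to ACC1 (0.031), and ACC1 was the second nearest to FAS2. The 3 nearest to FAS1 were YPD1 (0.028), MSS51 (0.038) and FAS2 (0.039), with ACC1 at rank 21. Those nearest to FAS2 were EAP1 (0.025), ACC1 (0.031) and ATP3 (0.033), and YLR257W (0.031) and EAP1 (0.035) followed FAS2 for ACC1. The 3 nearest to OLE1 were ERG3 (0.11), LAP3 (0.12) and BNA6 (0.15). None of the other 9 genes came near OLE1, the closest being PHS1 at rank 173 (0.53). Genes with little change lie close together by this measure, so the small values around FAS1, FAS2 and ACC1 describe flat profiles (median 0.21 over all candidates).

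Around these 10 genes, 9 lists of related steps held 67 other genes, all tested. In footprints 14 of the 67 were called higher and 11 lower, in mRNA 8 higher and 8 lower, and in efficiency none was called by edgeR. These are 37.3% and 23.9% called in footprints and mRNA, beside 38.5% and 21.9% of all tested genes. The reductases that work with the Elo enzymes and Phs1, IFA38 and TSC13, were called in neither direction in footprints (log2 differences -0.14 and -0.20). TSC13 mRNA, of the enoyl reductase, fell from 273 ± 0.22 to 197 ± 9.5 CPM (log2 change -0.47, SE 0.10, edgeR adjusted p = 0.0078), a call lost without RNA replicate 2 at 10 µM (edgeR adjusted p = 0.056). IFA38 mRNA, of the ketoreductase, differed by -0.33 (edgeR adjusted p = 0.11), and was called without RNA replicate 1 at 10 µM.

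Among 7 regulators of OLE1, footprints of 4 rose and 1 fell (list median 0.41), and mRNA of 2 rose and 1 fell (median 0.09). The shares called over all tested genes were 38.5% in footprints and 21.9% in mRNA, and the list was not tested against them. MGA2, for a membrane-bound activator of OLE1, rose from 60.0 ± 10 to 123 ± 2.7 footprint CPM (log2 change 1.04, SE 0.13, edgeR adjusted p = 3.9e-04) and from 97.1 ± 9.5 to 167 ± 8.7 mRNA CPM (0.78, SE 0.14, edgeR adjusted p = 0.0035). The related activator gene SPT23, named after its values were seen, was not called in footprints (-0.37, SE 0.18, edgeR adjusted p = 0.12) or in mRNA (-0.23, SE 0.17, edgeR adjusted p = 0.39). UFD1 (0.80) and CDC48 (0.42), parts of the segregase that frees the cut activator from the membrane, rose in footprints, and so did their partner NPL4 (0.41). RSP5, the ubiquitin ligase needed for activator processing, fell by 0.45 on the log2 scale in footprints and by 0.35 in mRNA. The NPL4 call was lost without any of the 4 footprint libraries, with DESeq2 and with library totals, and the RSP5 footprint call without replicate 1 at 0 µM or replicate 2 at 10 µM. UFD1 mRNA (0.44) lost its call in all 8 omissions and, among other settings, with DESeq2 and limma voom. RSP5 mRNA kept its call in 1 omission, without RNA replicate 2 at 0 µM, and in 3 of the 9 other settings.

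Of 8 genes for acetyl-CoA supply and biotin, the cofactor of Acc1, 3 were called higher in footprints and none lower (median 0.42). Of all tested genes, 18.7% were called higher and 19.8% lower. BIO2, biotin synthase, rose from 26.3 ± 3.6 to 99.6 ± 14 footprint CPM (log2 change 1.91, SE 0.19, edgeR adjusted p = 1.0e-04) and by 1.01 in mRNA. BIO4, dethiobiotin synthetase, rose by 1.32 from only 4.21 CPM. ACS2, the acetyl-CoA synthetase of glucose-grown cells, rose from 1617 ± 51 to 2174 ± 27 footprint CPM (0.43, SE 0.08, edgeR adjusted p = 0.0036). ACS2 mRNA (0.29) was called too, but not in any of the 8 omissions, nor with RNA fitted alone or the length trend removed. Of the 4 other genes for handling acyl-CoA, ACB1, the acyl-CoA binding protein, rose from 184 ± 3.9 to 377 ± 10 footprint CPM (log2 change 1.04, SE 0.11, edgeR adjusted p = 1.4e-04) and by 0.77 in mRNA. FAA3, a further acyl-CoA synthetase, fell by 0.60 in footprints, and its mRNA value of -0.41 was not called (edgeR adjusted p = 0.051; called without RNA replicate 2 at 10 µM, edgeR adjusted p = 0.044). FAA2 (-0.18) and FAT1 (0.01) were not called in footprints, nor in mRNA (-0.01 and 0.13).

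Mitochondria have a separate fatty acid synthesis that feeds lipoic acid. Of its 8 genes 3 were called higher in footprints and 2 in mRNA, and none lower (medians 0.21 and 0.26). Beside this, 38.5% of all tested genes were called in footprints and 21.9% in mRNA. ETR1, its enoyl reductase, rose by 1.08 in footprints (SE 0.14, edgeR adjusted p = 3.8e-04) and 0.90 in mRNA, and HTD2, its dehydratase, by 0.80 in mRNA. The footprint calls of CEM1 (0.50) and MCT1 (0.29) were weak, being lost without either footprint library at 0 µM and without footprint replicate 1 at 10 µM, and MCT1 also without footprint replicate 2 or either RNA library at 10 µM. Both were lost with DESeq2 and with the length trend removed, and MCT1 with library totals and with no filter. HTD2 lost its call without RNA replicate 2 at 0 µM or replicate 1 at 10 µM and with DESeq2. Of 6 regulators acting on FAS1, FAS2 or ACC1, such as INO2, INO4, OPI1 and SNF1, REG1, a targeting subunit of protein phosphatase type 1, fell in footprints (log2 change -0.41), a call lost without either footprint library at 0 µM or replicate 1 at 10 µM and, at -0.27, with the length trend removed. No other was called in footprints, and none in mRNA, where their differences ran from -0.25 to 0.26. Of 9 genes for fatty acid oxidation, SPS19 alone was called in footprints (1.79, from 1.24 CPM; not called without replicate 1 at 10 µM), and none in mRNA.

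Sphingolipid synthesis uses the chains that Elo2 and Elo3 make. Of its 17 genes, 5 fell and 1 rose in footprints (median -0.09), and the same numbers fell and rose in mRNA (median -0.24). Over all tested genes 38.5% were called in footprints and 21.9% in mRNA, and the list was not tested against these shares. The ceramidase gene YPC1 fell from 94.1 ± 1.1 to 43.3 ± 0.74 footprint CPM (log2 change -1.12, SE 0.11, edgeR adjusted p = 9.5e-05) and by 1.42 in mRNA. AUR1, inositol phosphorylceramide synthase, fell by 1.08 and 1.05, IPT1 by 0.83 and 0.81, and SUR1 by 0.56 and 0.66, in footprints and mRNA respectively, while the ceramidase gene YDC1 rose by 0.75 and 0.81. In triacylglycerol synthesis and breakdown, the lipase genes TGL3 (-0.57), TGL4 (-0.52) and TGL5 (-0.54) fell in footprints and LRO1 (0.69), an acyltransferase that makes triacylglycerol, rose (list median -0.42). In mRNA TGL4 alone was called (-0.42), a call kept in 1 of the 8 omissions, without RNA replicate 2 at 10 µM, and in 5 of the 9 other settings. The TGL4 footprint call was lost without replicate 2 of either condition, and that of TGL5 without replicate 1 of either.

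**Figure D5:**
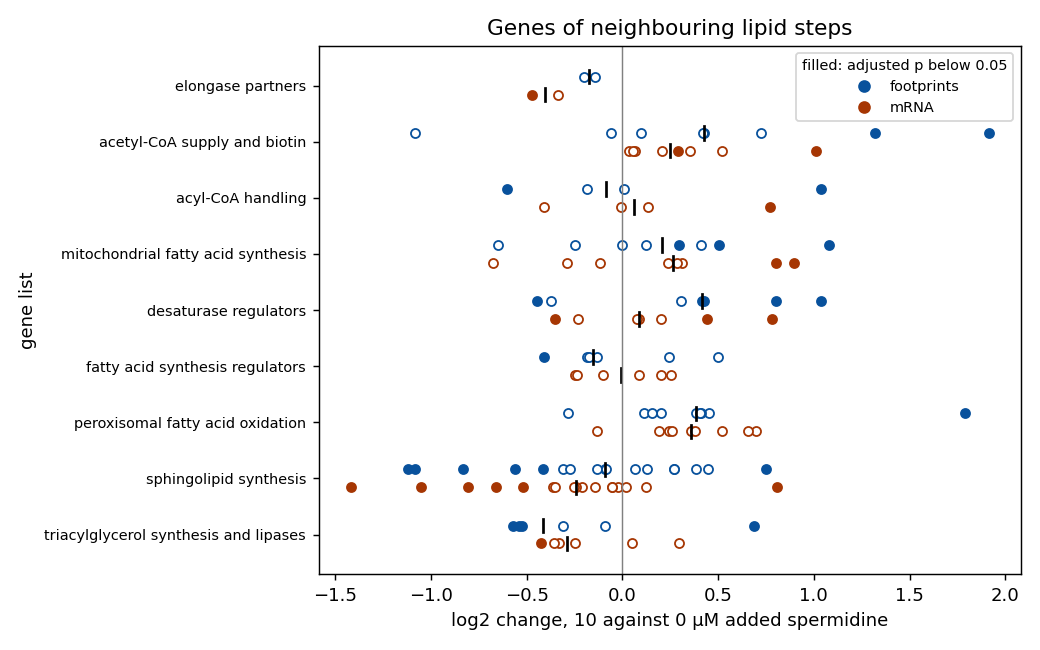
Log2 change at 10 against 0 µM added spermidine of each gene in 9 lists of related lipid steps, in footprints (blue) and mRNA (brown); filled points passed an edgeR adjusted p below 0.05 and black bars mark list medians. In footprints, calls lie on both sides of 0 in the lists for acyl-CoA handling, desaturase regulators, sphingolipid synthesis and triacylglycerol turnover.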

How the data were processed

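Ribosome footprints (17 to 34 nt, per the labels) and total RNA were measured in 8 libraries, whose titles give the assay, the spermidine level and the replicate number. The deposited table gives raw read counts per gene, made by the authors. As builds the submitters' processing notes name R64 as well as sacCer3, and as tools edgeR, cutadapt and Bowtie (1.1.2 and 1.2.2), without saying what each was used for. Strand, multiple matches and the part of a gene counted are likewise not given. The smallest count was 1, so genes without reads in a library appear to be absent from the table, and 3 of its lines hold no gene and no count. Within each group the pair of libraries differed beyond Poisson error, with chi-square per degree of freedom from 5.61 to 10.3.

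RefSeq's R64 gene table matched 5543 of 5545 IDs and gave symbols, positions and lengths, of which 96.3% were multiples of 3 among coding genes, hence "coding length". Sequences were not analysed here, so the planned look at promoter motifs and protein features was not made. Counts were fitted in R 4.3.3 with edgeR 4.0.16 after filterByExpr (minimum count 10, minimum total 15), with TMM factors over the 8 libraries and 1 quasi-likelihood model of the 4 groups without a block. The model gave 5 contrasts, each with Benjamini-Hochberg adjustment over 5488 genes, and SE is the log2 change over the root of F. Fold changes are edgeR's fitted values, and CPM values use library totals times TMM factors. The fit was first run on counts simulated from its own model and spread, which checks the code and not whether that model suits these libraries. DESeq2 1.42.0 and limma 3.58.1 served as alternatives. Likeness of pattern used a pseudocount of 0.5 CPM.

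The 10 genes and the lists were chosen with earlier results of these data known. All 10 genes are named, then called list members, at most 5 per list and comparison by smallest p, and every member of lists of 4 or fewer. INO2, INO4, OPI1 and SNF1 are named only to describe their list, and SPT23 was named after its values were seen.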

Additional observations from a re-analysis of the deposited data

How the results depend on the processing

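Depth limits the RNA side most: ELO1 had 168 to 245 RNA counts per library, against 348 to 554 in footprints. The labels do not say that replicate numbers pair the libraries, and deviations of same-numbered libraries correlated across 3083 genes at 0.071 to 0.30 between groups. With a replicate block, efficiency calls over all genes went from 98 to 181 and those among the 10 genes from 0 to 2, PHS1 (log2 0.77, edgeR adjusted p = 0.039) and OLE1 (0.78, edgeR adjusted p = 0.029). With the block FAA3 mRNA was also called (-0.41, edgeR adjusted p = 0.047), UFD1 mRNA was not (0.44, edgeR adjusted p = 0.0503), and no other call on a named gene changed. DESeq2 called 1 of the 10 in efficiency. The length trend removed gave 5 of the 10 higher in footprints in place of 3. The 2 genes lower in mRNA became 0 with DESeq2 size factors, DESeq2 or RNA fitted alone, and 1 with library totals or a mean count of at least 100. Among ratios of footprints to mRNA, the 1 gene lower became 2 without spermidine with a mean count of at least 100, and 0 at 10 µM with DESeq2. Uncorrected for length, FAS2 over FAS1 was 0.826 and 0.838 in footprints and 0.740 and 0.718 in mRNA.

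With each library left out in turn, calls over all genes ran from 1392 to 2218 in footprints (2113 with all; lowest without replicate 2 at 0 µM), from 669 to 1080 in mRNA (1203 with all; 669 and 771 without RNA replicates 2 and 1 at 10 µM) and from 20 to 151 in efficiency (98 with all; 20 without RNA replicate 2 at 10 µM). In efficiency, all but the fit without RNA replicate 1 at 0 µM moved the count by over 1.5 times. Among the 10 genes, 2 to 3 were higher in footprints, 1 to 2 higher and 0 to 2 lower in mRNA, and 0 to 1 higher in efficiency. For footprints against mRNA, 0 to 1 was lower at 10 µM. The cause of these shifts was not tested. Each omission leaves a group with 1 library, assumed to vary like the other groups.

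Signs turned only for values near 0, none of them called. ELO2 footprints turned with a mean count of at least 100 (0.031), with footprints fitted alone (0.011) and over omissions (-0.082 to 0.053). FAA1 footprints turned with DESeq2 size factors (0.0043), DESeq2 (0.0043), a mean count of at least 100 (0.037), footprints fitted alone (0.016), the length trend removed (0.055) and over omissions (-0.021 to 0.032). FAS1 mRNA ran from -0.19 to 0.012 over omissions. With a mean count of at least 100, footprints against mRNA turned in ELO1 (-0.086), ELO2 (-0.014) and ELO3 (-0.027) without spermidine and in ACC1 at 10 µM (-0.072; -0.034 with library totals). Values that kept their sign were lower there too, such as FAS1 (0.19 against 0.35) and ACC1 (-0.29 against -0.13) without spermidine. What lies behind these turns was not tested. Over omissions ELO1 at 0 µM ran from -0.026 to 0.14 and OLE1 at 0 µM from -0.32 to 0.039. FAT1 footprints were -0.033 with library totals and -0.051 to 0.10 over omissions. FAA2 mRNA was 0.040 with DESeq2 size factors, 0.031 with library totals, 0.041 with DESeq2 and -0.082 to 0.067 over omissions.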
